A study of Mus musculus with 5 samples.

Results

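The 9 genes of bone morphogenetic protein (BMP) and activin signalling that are described here, across the cell types of the newborn mouse growth plate and by genotype label, are Grem1, Nog, Chrd, Chrdl1, Chrdl2, Fst, Fstl1, Bambi and Inhba. They were taken by gene symbol from the 29818 genes of the deposited count matrices, and all 9 were found there. BMPs and activins are secreted ligands of the TGF-beta superfamily that bind pairs of receptor kinases at the cell surface and signal through Smad proteins. Antagonists bind the ligand outside the cell and keep it from its receptor, and their placement shapes where BMP and activin signals act. In cartilage BMP signals drive chondrocyte differentiation and hypertrophy, and antagonists at the joint surface and in the resting zone are known to limit them. The label given to the gene group, BMP and activin antagonists, fits 8 of the 9 genes by their known roles. Among these 8, Bambi is a membrane protein that acts in the receptor complex rather than by binding the ligand outside the cell. The remaining gene, Inhba, encodes the beta A subunit shared by activin A and inhibin A and thus a ligand chain rather than an antagonist.

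The data are single-cell RNA-Seq from 5 mouse pups of strain C57BL/6J, with 1 library per pup: 2 pups labelled wild type (WT pups 1 and 2) and 3 labelled mutant (pups 3, 4 and 5). The mutant pups carried a conditional Trpv4 knock-in allele, p.R594H, that is expressed once Col2a1-Cre, a Cre transgene driven in chondrocytes, has recombined it. By the study's methods the Cre line came from a B6SJLF1 background and was later crossed to C57BL/6J. According to the study's methods the allele was heterozygous and the pups were littermates, and whether the WT pups carried the Cre transgene or the unrecombined allele is not given in the sources used here. Cells came from femoral and tibial growth plate cartilage, at postnatal day 5 by the sample labels and day 3 by the description of the series. The UMI counts cannot show the p.R594H change itself.

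After the study's stated limits on cells (at least 200 and at most 6000 genes, at most 10% mitochondrial UMIs), 82516 of 84382 cells remained, 13814 to 19133 per pup. The libraries held 117746735 to 183322632 UMIs, and the median cell of the WT pups (9261 and 8521 UMIs) was deeper than that of the mutant pups (6657, 6000 and 7016). Of 84326 distinct barcodes, 56 occurred in at least 2 libraries. Xist, the RNA that coats the inactive X chromosome in females, was detected in 89.8% (mutant pup 3) and 88.4% (mutant pup 4) of cells, but in at most 0.174% of cells in each other pup, so this difference runs with the label in 2 of 3 mutant pups. Trpv4 itself read 160 and 94.1 CPM (UMI counts scaled to a fixed library total) in the WT pups and 88.3, 161 and 179 in the mutant pups over all cells, and the labels overlapped. Clustering, made without the 9 genes, gave 52 clusters, of which 34 were named "X-like" from marker lists and 18, with 45.0% of the cells, stayed unnamed. All samples are labelled as chondrocytes, but the named clusters also included macrophage-like, fibroblast-like, tendon-like, muscle-like and other cells.

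Levels below are CPM, the UMIs of a gene scaled to the UMIs of all genes, summed over the cells of a type or cluster in each pup and given as the mean ± SD over the 5 pups. They compare cell types for 1 gene at a time, since the files carry no correction for differences between genes in capture. No cluster was named hypertrophic-like or osteoblast-like. Clusters 41 and 26 scored highest for the osteoblast list (8 and 6 of 9 markers up) but had more hypertrophic than osteoblast markers among their leading genes, and cluster 32 had only 3 of 7 hypertrophic markers up, so all 3 are given by number. Cluster 33, led by Col10a1, scored 2.46 for the hypertrophic list and 2.95 for the prehypertrophic list, whose name it took. The paper told hypertrophic chondrocytes apart by Col10a1, so prehypertrophic-like here includes cells of that kind. A lower level in bulk sums of many cells cannot be told apart as fewer expressing cells or less RNA per cell.

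Opposite orders over the named chondrocyte types came from Grem1 and Nog, which encode secreted proteins that trap BMPs by direct binding. Among the named types, Grem1 was high in articular-like and resting-like chondrocytes and near its background in the proliferating-like and prehypertrophic-like chondrocytes, whereas Nog had the reverse order. The name proliferating-like rests on cluster 25 alone. Resting-like clusters 0 and 13 scored higher for the proliferating list (1.23 and 1.16) than for the resting list (1.02 and 1.03). They took the resting name from markers among their leading genes, while resting-like cluster 22 scored highest for the resting list. The contrast of resting-like with proliferating-like cells depends on these names. Some unnamed clusters whose best score was also for the proliferating list did not have that pattern. Cluster 15, led by the division genes Top2a and Prc1 (Mki67 852 CPM), had 65.7 ± 17.5 CPM of Grem1 and 2.7 ± 0.6 CPM of Nog. Clusters 5, 9 and 17 had 168, 193 and 182 CPM of Grem1. Of the 8 markers of that list, 2 were up in cluster 15, 2 in cluster 5, 1 in cluster 9 and 5 in cluster 17. Unnamed clusters 11, 14 and 19, with 7, 8 and 8 up, also had that best score, and cluster 19 was high in Nog (below). The position of Grem1 is chr2:113746164-113758646 on the minus strand and that of Nog is chr11:89300638-89302332 on the minus strand (GRCm38). Both genes are annotated as protein coding.

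In articular-like chondrocytes Grem1 stood at 244 and 227 CPM in WT pups 1 and 2 and at 255, 166 and 164 CPM in mutant pups 3, 4 and 5 (mean 211 ± 43.0, SD, n = 5). In resting-like chondrocytes its level was 319, 166, 167, 160 and 150 CPM in pups 1 to 5 (192 ± 71.3, SD, n = 5), where pup 1 lay far above the other 4. The levels of these 2 types overlapped, and both lay above every other named type in each pup. Tendon- and ligament-like cells followed at 67.5 ± 16.4 CPM, with no pup reaching the lowest resting-like value. In proliferating-like and prehypertrophic-like chondrocytes Grem1 was at 6.1 ± 5.2 and 5.0 ± 1.8 CPM, below the 11.6 ± 3.5 CPM of macrophage-like cells, a type that should lack it.

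Within the clusters named articular-like Grem1 was uneven. The highest level of all clusters was in articular-like cluster 18, whose leading genes included Lgr6, Cck and Tnn, with 295, 409, 481, 299 and 240 CPM in pups 1 to 5 (345 ± 97.8, SD, n = 5). Its name rested on 5 of 8 markers and on Cilp2 among its 10 leading genes. It had little Prg4, the joint lubricant lubricin, at 2005 CPM, below resting-like cluster 22 (5092 CPM), against 27391, 17903 and 60556 CPM in the articular-like clusters 8, 20 and 27. In those 3 clusters, rich in Prg4, the Grem1 level was 174 ± 49.3, 102 ± 41.8 and 120 ± 51.6 CPM. Resting-like cluster 0, rich in Ucma, a small cartilage matrix protein, held 408 CPM in pup 1 and 174 to 187 CPM in the other pups, so the high resting-like value of pup 1 was present in its largest cluster. Grem1 was as high in some unnamed clusters. Cluster 2 (3949 cells), led by Cilp2, Col1a1 and C1qtnf2 and nearest to the tendon markers, had 144, 228, 222, 205 and 229 CPM in pups 1 to 5 (205 ± 35.7, SD, n = 5), above the means of the 3 clusters rich in Prg4 and with pup 1 the lowest. Erythroid-like cluster 40 had 131 CPM in pup 1, its highest pup, while the macrophage-like cells of pup 1 had 9.51 CPM, within the range of the other pups (8.02 to 17.2).

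Nog was highest in prehypertrophic-like chondrocytes (126 ± 32.3 CPM, SD, n = 5, lowest pup 90.6) and second in proliferating-like chondrocytes (42.9 ± 9.9 CPM, highest pup 52.8). The ranges of these 2 types did not overlap each other or any other type. Cluster 33, which carried Col10a1 (the collagen of hypertrophic cartilage, 16986 CPM), Ihh (the hedgehog ligand of prehypertrophic cells, 475 CPM) and Pth1r, was the peak, with 272 and 259 CPM in the WT pups and 249, 224 and 204 CPM in the mutant pups. Every pup of cluster 33 lay above the same pup in every other cluster. The earlier prehypertrophic-like cluster 6, led by Panx3, Smpd3 and Ppa1, had 80.2, 122, 130, 103 and 74.8 CPM in pups 1 to 5. The dividing cells of cluster 25 (Mki67 514 CPM) had 31.5 to 52.8 CPM, against 2.08 to 3.61 CPM in the dividing cells of unnamed cluster 15.

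An unnamed cluster, 19, led by H2ac6, Sfrp5, H2-Ab1 and Aldoc, had 118 ± 43.6 CPM of Nog and did not differ from cluster 6 beyond its spread. Its Grem1 level was uneven, with 71.7 and 83.7 CPM in WT pup 1 and mutant pup 5 and 9.41 to 11.3 CPM in the other pups, where clusters 6 and 33 had 5.2 ± 1.5 and 4.3 ± 4.5 CPM. Articular-like chondrocytes were at the floor for Nog, with 1.8 ± 0.5 CPM against 2.6 ± 2.3 CPM in macrophage-like cells. Resting-like chondrocytes held 11.4 ± 4.6 CPM and perichondrial-like cells 12.8 ± 4.1 CPM, and these overlapped. Over the 52 clusters the correlation of Grem1 and Nog levels on the log2(CPM + 5) scale was -0.23, given as a description, since the clusters share the 5 libraries.

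**Figure D1:**
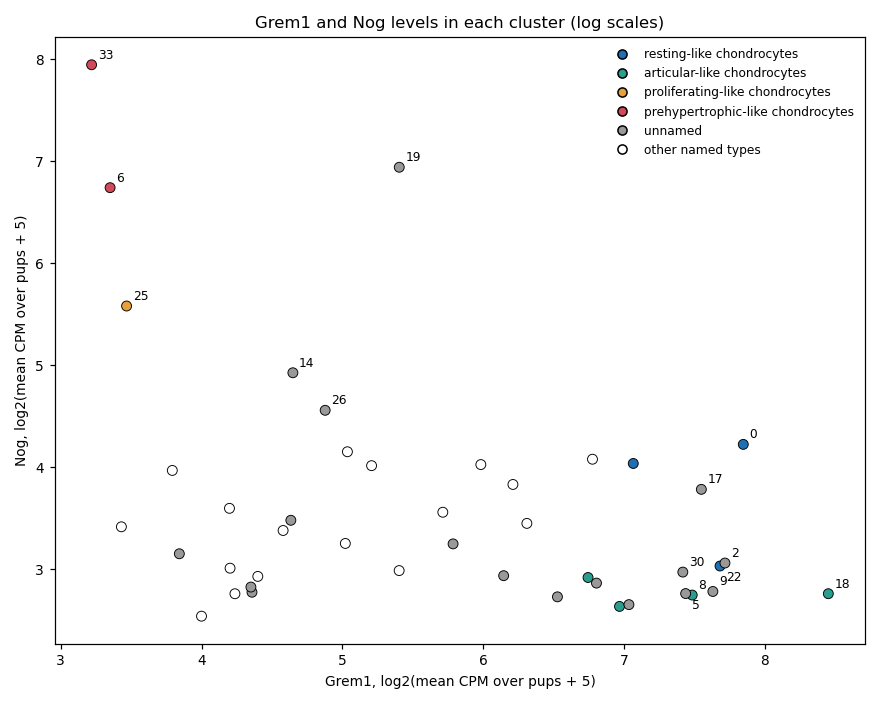
Each point is a cluster with at least 10 cells in every pup, placed by the mean level over 5 pups of Grem1 (horizontal, log2(CPM + 5)) and Nog (vertical, log2(CPM + 5)), and coloured by its name. Clusters 18 and 0 lie far right with little Nog, and clusters 33 (242 CPM of Nog) and 6 lie at the top left with little Grem1, while cluster 19, also at the top, has a mean of 37.3 CPM of Grem1.

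Chordin and its relatives are secreted cysteine-rich BMP binders. Chrd (chr16:20733127-20742384, plus strand), the founder of the group, was highest in connective tissue cells here, lower in articular-like and resting-like chondrocytes, and near its background in proliferating-like and prehypertrophic-like cells. Chrd read 47.4, 35.7, 40.5, 53.1 and 36.0 CPM in the synovial-like cells of pups 1 to 5 (42.5 ± 7.6, SD, n = 5). Perichondrial-like (38.2 ± 4.2) and tendon- and ligament-like cells (37.3 ± 6.1) overlapped with them. Articular-like chondrocytes held 24.0 CPM and resting-like chondrocytes 19.6 CPM, the latter above each type further down the order in every pup. In prehypertrophic-like chondrocytes Chrd was at 1.8 ± 0.3 CPM in a range from 1.44 to 2.16, below the 4.1 ± 1.0 CPM of macrophage-like cells, so Nog and Chrd were high in different cells.

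Chrdl1 (chrX:143285674-143394262, minus strand), chordin-like 1 or ventroptin, had 2 separate peaks. The first was prehypertrophic-like cluster 33, with 66.7, 218, 117, 111 and 81.6 CPM in pups 1 to 5, where WT pup 1 was the lowest and WT pup 2 the highest. The other was fibroblast-like cluster 31, led by Abca8a, Aldh1a2 and Mfap5, with 79.6, 94.8, 125, 84.2 and 160 CPM. The peaks overlapped. By type the order was prehypertrophic-like chondrocytes (62.4 ± 37.0 CPM), fibroblast-like cells (34.0 ± 11.1) and tendon- and ligament-like cells (27.9 ± 14.8), each overlapping the next. Articular-like and resting-like chondrocytes (2.4 and 1.8 CPM) were near the 1.7 CPM of macrophage-like cells, and over 52 clusters Chrdl1 went with Nog (r = 0.57, a description).

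Chrdl2 (chr7:100006172-100034728, plus strand), chordin-like 2, was low throughout. Skeletal muscle-like cells (cluster 39, Myog and Pax7) had 10.3, 38.1, 50.3, 10.9 and 32.4 CPM in pups 1 to 5, every pup above every other type. The next type, articular-like chondrocytes, had 6.8 ± 1.9 CPM and reached 9.8 CPM in its highest pup. Pup 1 had only 12 muscle-like cells, so its 10.3 CPM rests on few UMIs. The unnamed cluster 19, which also held Nog, had 24.8 and 8.32 CPM in the WT pups and 24.6, 35.5 and 31.5 CPM in the mutant pups, and overlapped with the muscle-like cells. Only 0.2 CPM were seen in macrophage-like cells.

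Follistatin, encoded by Fst (chr13:114452290-114458951, minus strand), binds activins almost irreversibly and several BMPs more weakly. Its level was outside cartilage. Pericyte- and smooth muscle-like cells (cluster 29, Myh11 and Rgs5) had 363, 143, 283, 364 and 470 CPM in pups 1 to 5, and fibroblast-like cluster 31, a peak of Chrdl1 as well, had 209, 153, 234, 383 and 276 CPM. These overlapped with each other, and cluster 31 lay above the next cluster in every pup. Over whole types, fibroblast-like cells held 76.8 ± 14.2 CPM, below pericyte- and smooth muscle-like cells (325 ± 121) and above perichondrial-like cells (25.1 ± 6.7) with no overlap on either side. The 4 chondrocyte types held 1.6 to 5.5 CPM. A small Schwann-like cluster (106 cells) had 135 to 616 CPM and was left out of the order because a pup had 5 of its cells.

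Fstl1 (chr16:37776873-37836514, plus strand), a secreted glycoprotein with a follistatin-like domain, was the gene detected most often, with a UMI in 94.5% of all cells. It read 3735, 4290, 4829, 4168 and 4482 CPM in the fibroblast-like cells of pups 1 to 5 and 4398, 4561, 4456, 4308 and 3500 CPM in synovial-like cells, which overlapped. Both lay above perichondrial-like cells (2456 ± 154), and these above pericyte- and smooth muscle-like cells (1905 ± 74.1), in every pup. Among the named chondrocytes the level was 856 CPM in articular-like, 775 CPM in resting-like and 203 CPM in proliferating-like cells (but 787 CPM in the dividing cells of unnamed cluster 15), and lowest in prehypertrophic-like cells, where the level of 117 to 140 CPM lay under most of the macrophage-like range (123 to 302). At cluster level the peak was fibroblast-like cluster 23, led by Clec3b, Ly6a and Mfap5 (5491 ± 790 CPM), which overlapped cluster 31 (5176 ± 264).

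Bambi, on chromosome 18, encodes a membrane protein that resembles a type I receptor without the kinase and damps signalling inside the receptor complex. It was the flattest of the genes over the named types, from 52.5 ± 12.5 CPM in endothelial-like cells through 38.9 ± 5.2 in prehypertrophic-like chondrocytes and 32.1 ± 2.0 in tendon- and ligament-like cells to 12.0 ± 5.6 in macrophage-like cells. Its peak was the unnamed cluster 41, with 101, 157, 159, 133 and 193 CPM in pups 1 to 5, every value above every other cluster. Cluster 41 (268 cells, 14 in the smallest pup) had Ibsp (13246 CPM), Dmp1 and Ifitm5 among its leading genes, which are genes of mineralizing bone cells. Cluster 33 came next with 69.5 ± 13.7 CPM.

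Inhba (chr13:16011851-16031621, plus strand) was concentrated at the joint lining. Synovial-like cells (cluster 28, led by Htra4, Tspan15 and Clic5) read 403 and 395 CPM in the WT pups and 502, 530 and 572 CPM in the mutant pups, above every other type. Perichondrial-like cells (150 ± 35.4 CPM), granulocyte-like cells (121 ± 87.6) and articular-like chondrocytes (112 ± 34.9) followed and overlapped. Prehypertrophic-like and proliferating-like chondrocytes had 10.5 and 7.2 CPM, under the 17.2 CPM of macrophage-like cells. Macrophage-like cells are not a background for Inhba, since macrophage-like cluster 38 held it in the WT pups (below). Whether the 2 chondrocyte types lay at background can therefore not be read from this comparison. The ligand subunit and its binding protein were thus highest in different types, Inhba in synovial-like and Fst in pericyte- and smooth muscle-like cells, while Fstl1 was high in both synovial-like and fibroblast-like cells.

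**Figure D2:**
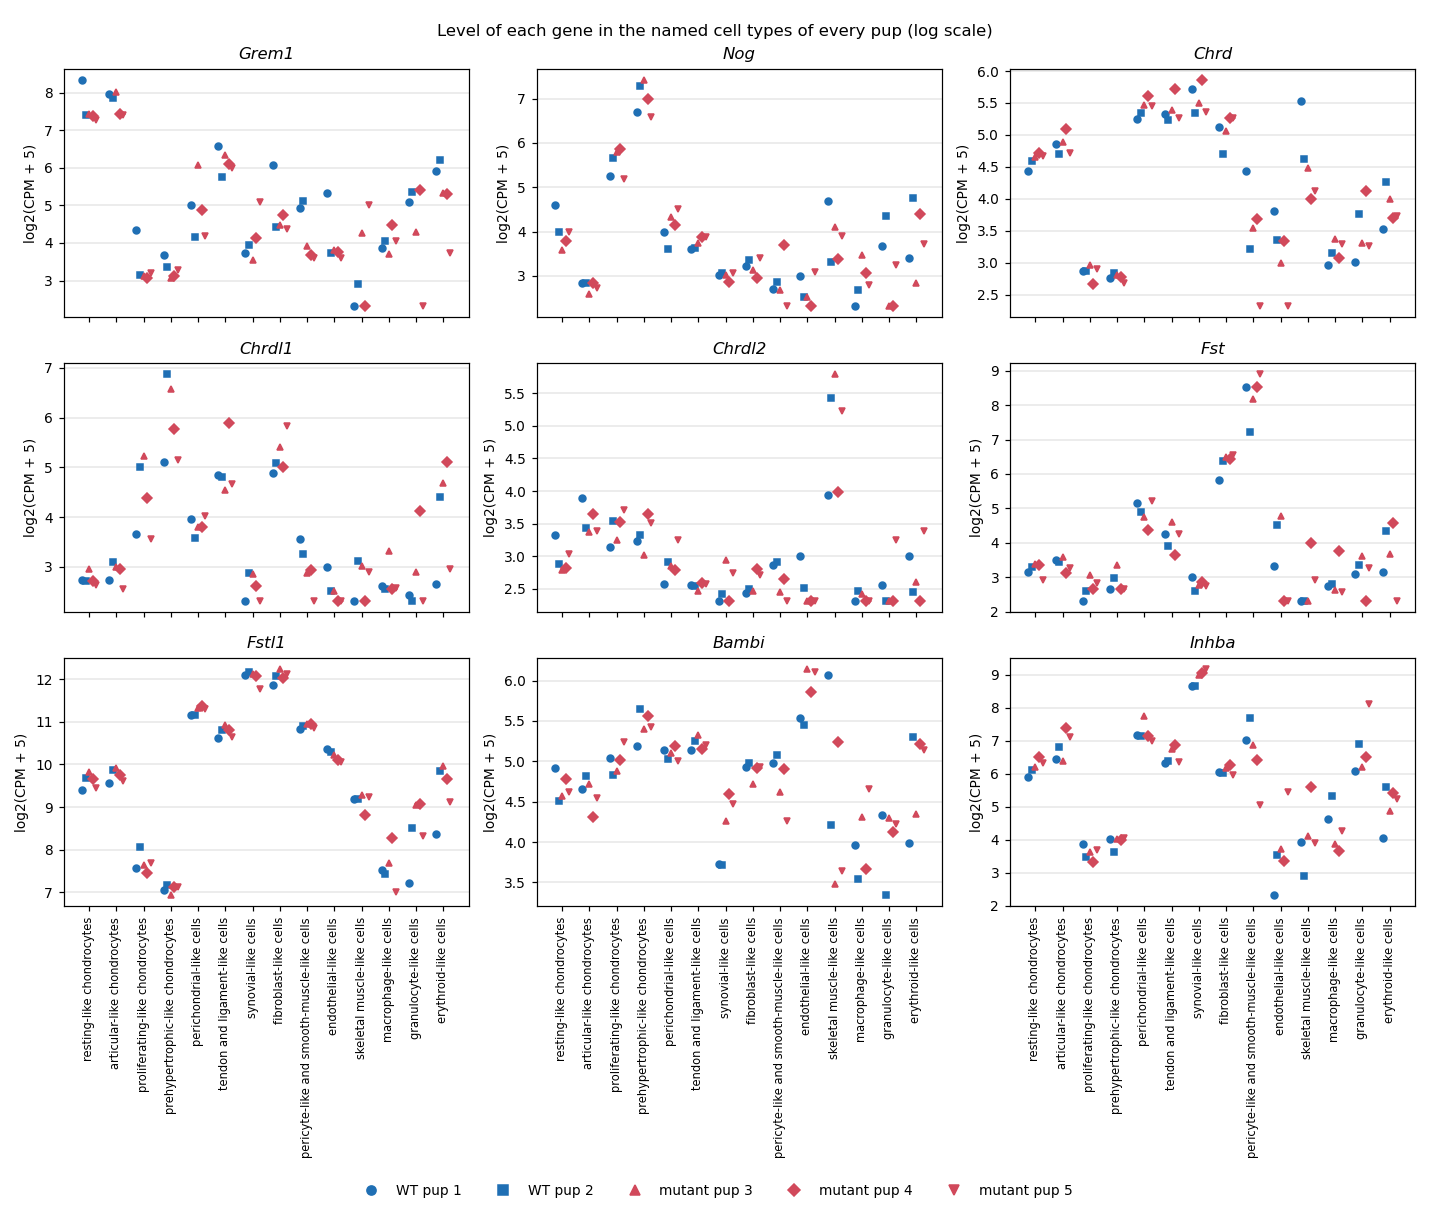
Each panel gives the level of a gene as log2(CPM + 5) in 14 named cell types, with a point per pup (blue for WT, red for mutant). Grem1 is highest in articular-like and resting-like chondrocytes, Nog in prehypertrophic-like chondrocytes (90.6 to 166 CPM), Fst in pericyte- and smooth muscle-like cells and Inhba in synovial-like cells (395 to 572 CPM).

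**Figure D3:**
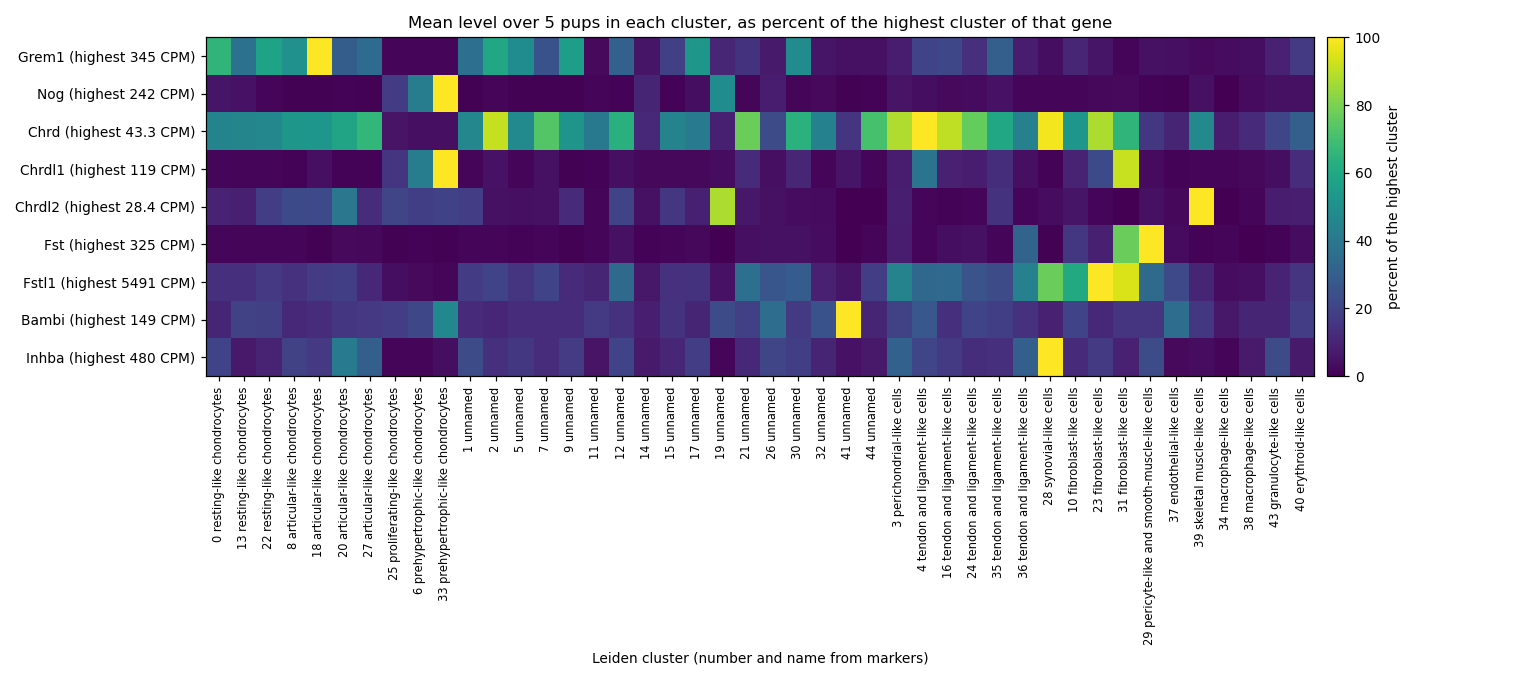
Rows are the 9 genes and columns the 44 clusters with at least 10 cells in every pup, grouped by name; colour is the mean level over 5 pups as a percent of that gene's highest cluster, whose CPM stands beside its name. Nog and Chrdl1 are high in cluster 33, where Bambi comes after its peak in cluster 41. Chrdl1, Fst and Fstl1 are high in cluster 31, though Fst peaks in cluster 29 and Fstl1 in cluster 23. Grem1 is high in resting-like and articular-like clusters and in unnamed clusters such as cluster 2 (205 CPM).

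The cluster with the highest level of a gene, among those with at least 50 cells in every pup, is called its leading cluster. Shares of cells with a UMI depend on depth, so each cell was also thinned to 2000 UMIs, which left out 3 cells of pup 4. Grem1 was seen in 59.0% of the cells of cluster 18 (median 8998 UMIs) and in 33.1% after thinning, against 3.48% and 1.19% of macrophage-like cells (median 7589 UMIs). For Nog in cluster 33, whose cells were deep (median 28449 UMIs), the share was 87.1% and 32.4% after thinning, against 1.19% and 0.255%. Inhba in cluster 28 was seen in 67.8% of the cells (40.7% thinned) against 5.95% (1.95%) in macrophage-like cells, and Fst in cluster 31 in 49.4% (26.1%) against 1.27% (0.34%). Chrd stayed sparse in its leading cluster 4, a tendon-like cluster with Kera and Tnmd, with 28.1% of the cells (9.07% thinned) against 3.06% (0.34%). Fstl1 was in 99.7% of the cells of cluster 23 but also in 29.3% of macrophage-like cells (16.5% thinned), the highest share there among the 9 genes. Every leading share was above that of macrophage-like cells after thinning.

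The genes whose level over the 52 clusters was most like that of each member were found among 11565 genes by Pearson's r on log2(CPM + 5), as a description. Nog was closest to Nos1 (r = 0.895), Il17b (0.857) and Ddn (0.847), and Grem1 to Srpx2 (0.867), Nfasc (0.842) and Gm35024 (0.792). Chrd went with Ltbp3 (0.919), Col6a2 (0.909) and Tbx4 (0.901), Fstl1 with Fbn1 (0.915), Antxr1 (0.902) and Smarca2 (0.900), and Inhba with Col6a2 (0.752), Mn1 (0.730) and Col6a3 (0.729). Fst was most like Astn2 (0.879), Egflam (0.815) and Aoc3 (0.802). The likenesses of Bambi (Snai1 0.702, Cd200 0.691, Unc5b 0.685), Chrdl1 (Macrod2 0.679, Ccdc80 0.655, Slc38a10 0.651) and Chrdl2 (Acsl3 0.705, ENSMUSG00000121307 0.691, Stbd1 0.673) were lower. Among the 9 genes the highest r values were those of Chrd with Fstl1 (0.80) and Inhba (0.73), and the lowest was that of Chrdl2 with Fst (-0.28).

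A list of 68 other genes of the pathways (15 ligands, 12 receptors and co-receptors, 8 Smads, 9 target genes and 24 further extracellular modulators) places these patterns. Synovial-like cluster 28, the peak of Inhba, was also the highest cluster for 8 of the 68, among them the ligands Bmp2 (435 CPM), Bmp3 (194 CPM) and Bmp4 (173 CPM) and the antagonist Nbl1 (460 CPM). The 8 also include Fstl5 (0.96 CPM) and Tll2 (1.6 CPM), each with a lowest pup of 0. Endothelial-like cluster 37 was likewise the highest for several of the 68, among them Inhbb (128 CPM), Bmpr2 (320 CPM) and Eng (264 CPM). Fibroblast-like cluster 31, where Fst and Chrdl1 were high, was the highest for 4, including the activin receptor Acvr2a (187 CPM). In cluster 33, the peak of Nog, the highest genes were 2, the inhibitory Smad7 (285 CPM) and the BMP target Atoh8 (13.2 CPM). Cluster 19, with Chrdl2 and Nog, had the maximum of 3, including Gdf10 (689 CPM) and Smoc2 (764 CPM). Cluster 18, the peak of Grem1, had the maximum of none of the 68 (0 genes).

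The study compared mutant with WT growth plates to find which genes respond to the activated channel. UMIs were summed per pup within 6 sets of cells, and mutant pups were tested against WT pups with edgeR's quasi-likelihood test and Benjamini-Hochberg adjustment over all genes of the set. The sets were all cells, articular-like, resting-like, proliferating-like with prehypertrophic-like, perichondrial-like, and tendon- and ligament-like cells. In none of the 6 did any of the 9 genes pass an adjusted p of 0.05 (0 of 9), against a background of 0% of the genes tested (0 of 21024 in all cells and 0 in each other set). At an unadjusted p under 0.05, 1 of 9 members stood out in all cells against 5.56% of all genes (1169 genes). In the other sets this count was 0 of 9 in articular-like (6.08% of all genes, 798), 3 in resting-like (6.42%, 900), 1 in proliferating-like with prehypertrophic-like (3.03%, 479), 2 in perichondrial-like (8.83%, 1037) and 1 in tendon- and ligament-like cells (4.15%, 559). DESeq2 called 42, 5, 29, 3, 18 and 0 genes in these 6 sets in the same order, and 0 members. The values below are therefore given as levels by pup, with edgeR's fold changes beside them. In this edgeR fit and in DESeq2, with all 5 pups, no member passed the adjusted threshold in these sets. Without edgeR's low-count filter, also with all 5 pups, Inhba and Nog passed in resting-like cells, with 151 of 25141 genes. Nog passed in perichondrial-like cells too, with 141 of 21845 genes (both given in the last section).

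By direction, the fold change was above 0 in 38 of the 54 member and set pairs, 8 of 9 in all cells and 3, 5, 5, 8 and 9 in the other sets in the order above. Without mutant pups 3 and 4, the pups with Xist, these counts were 4 in all cells and 2, 2, 4, 6 and 6 in the others. Every mutant pup lay above both WT pups in 10 pairs and below both in 2. In all cells 2 of 9 members had every mutant pup above, where 10.1% of all genes did, and 0 had every mutant pup below, where 12.4% did. The counts above were 0 in articular-like cells (background 11.2%), 2 in resting-like cells (11.2%), 0 in the proliferating-like and prehypertrophic-like set (7.74%), 3 in perichondrial-like cells (13.1%) and 3 in tendon- and ligament-like cells (10.0%). Every mutant pup was below for 1 of 9 in articular-like cells (background 12.7%), 1 in the proliferating-like and prehypertrophic-like set (10.4%), and 0 in resting-like (12.2%), perichondrial-like (14.5%) and tendon- and ligament-like cells (12.0%). The median log2 fold change of the 9 was 0.17 in all cells, -0.19 in articular-like, 0.07 in resting-like, 0.09 in proliferating-like with prehypertrophic-like, 0.24 in perichondrial-like and 0.23 in tendon- and ligament-like cells, where the median of all genes lay between -0.02 and 0.00. Without the pups with Xist the median of the 9 was -0.07, -0.30, -0.15, -0.10, 0.19 and 0.05 in the same order. Leaving out each pup in turn, it ran from 0.03 to 0.27 in all cells, -0.18 to -0.03 in articular-like, -0.09 to 0.25 in resting-like, -0.19 to 0.27 in proliferating-like with prehypertrophic-like, 0.23 to 0.26 in perichondrial-like and 0.12 to 0.43 in tendon- and ligament-like cells. The lowest value in all cells was that without pup 3, and the sign turned without pup 3 (-0.09) or pup 4 (-0.09) in resting-like cells and without pup 1 (-0.14) or pup 3 (-0.19) in the proliferating-like and prehypertrophic-like set.

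Inhba, the activin subunit, had the mutant pups above both WT pups in 3 of the 6 sets. Its TMM-normalized level in all cells was 57.6 and 55.1 CPM in the WT pups and 66.3, 88.0 and 71.5 CPM in the mutant pups (log2 fold change 0.42 ± 0.13, SE; edgeR adjusted p = 0.84). In resting-like chondrocytes the WT pups had 54.0 and 60.7 CPM and the mutant pups 67.3, 90.6 and 77.6 CPM (0.45 ± 0.13, SE; edgeR adjusted p = 0.74), and in tendon- and ligament-like cells 72.7 and 75.0 against 99.3, 125 and 76.4 CPM (0.45 ± 0.19, SE). In all 3 every mutant pup was above both WT pups, by little for pup 5 in the tendon- and ligament-like cells. The share of synovial-like cells, where Inhba was highest, was 0.787% and 1.73% in the WT pups and 1.58%, 0.844% and 0.666% in the mutant pups, and its part in the sum over all cells was not tested. In synovial-like cluster 28 itself the level was 410 and 400 CPM in WT and 503, 547 and 591 CPM in mutant pups, a log2 fold change of 0.43 ± 0.12 (SE; edgeR adjusted p = 0.95), and the mutant pups were again above.

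Nog, the BMP trap of the prehypertrophic-like cells, did not have the same order of labels in every set. In perichondrial-like cells it read 10.5 and 7.14 CPM in the WT pups and 15.4, 13.5 and 17.6 CPM in the mutant pups (log2 fold change 0.82 ± 0.22, SE; edgeR adjusted p = 0.36). In tendon- and ligament-like cells it read 6.92 and 6.99 against 8.08, 10.8 and 9.77 CPM (0.46 ± 0.18, SE). Every mutant pup was above in both sets. In cluster 33, its peak, the order was opposite, with 278 and 254 CPM in WT and 248, 225 and 211 CPM in mutant pups (-0.22 ± 0.12, SE; edgeR adjusted p = 0.999). In resting-like chondrocytes it read 18.9 and 10.5 against 6.94, 9.31 and 11.2 CPM (-0.70 ± 0.28, SE), where mutant pup 5 lay above WT pup 2. That value was -0.19 without WT pup 1 and -1.05 without WT pup 2. Outside cluster 33 these levels of Nog were low. In CPM before TMM they lay within the range over pups of erythroid-like cells (2.20 to 22.2) and of skeletal muscle-like cells (4.92 to 20.6).

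Grem1 did not separate the labels where it was high. In cluster 18 it read 292 and 381 CPM in WT and 478, 326 and 244 CPM in mutant pups (log2 fold change 0.06 ± 0.31, SE; edgeR adjusted p = 0.994), and the mutant pups spanned the WT pups. In resting-like chondrocytes, 317 and 158 CPM in WT stood against 165, 168 and 154 CPM in mutant pups (-0.55 ± 0.27, SE). That difference rests on WT pup 1: without it the log2 fold change was 0.037, and without WT pup 2 it was -0.97 (edgeR adjusted p = 0.0138). With a WT pup left out, the spread came from the 3 mutant pups alone and the lone WT pup was assumed to vary like them. Among the 6 sets, all mutant pups were lower only in the proliferating-like and prehypertrophic-like set, where the gene is near the level of macrophage-like cells (9.78 and 4.78 against 3.49, 3.68 and 4.56 CPM, -0.89 ± 0.31, SE), and the value was -0.29 without WT pup 1.

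Chrd was higher in every mutant pup in perichondrial-like cells (32.0 and 35.1 against 39.7, 46.8 and 38.4 CPM, log2 fold change 0.31 ± 0.14, SE), in resting-like chondrocytes (16.4 and 18.3 against 20.1, 22.4 and 21.1 CPM, 0.29 ± 0.12, SE) and in its leading cluster 4 (40.2 and 33.4 against 44.0, 58.2 and 43.0 CPM, 0.41 ± 0.17, SE; edgeR adjusted p = 0.994). Chrdl1 varied more between pups than between labels in its leading cluster 33. Over the 25 single clusters tested, its median log2 fold change was 0.52. Every mutant pup was above in 5 of them (background 10.5%) and below in 0 (background 11.3%). In cluster 33 it read 68.3 and 214 CPM in WT and 117, 111 and 84.2 CPM in mutant pups (-0.47 ± 0.53, SE), with the 2 WT pups at the ends. The sign turned with the WT pup kept: the log2 fold change was -1.03 without pup 1 (edgeR adjusted p = 0.0410, the spread from the mutant pups alone) and 0.63 without pup 2. Chrdl2 in cluster 19 overlapped between labels (25.4 and 8.19 against 24.9, 35.9 and 31.2 CPM, 0.93 ± 0.48, SE), and its fold change was 1.90 without WT pup 1 and 0.27 without WT pup 2.

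For the follistatins and Bambi, Fst in fibroblast-like cluster 31 had every mutant pup above both WT pups, with 214 and 160 against 244, 404 and 287 CPM (log2 fold change 0.74 ± 0.22, SE; edgeR adjusted p = 0.836). This cluster held 51 cells in WT pup 1 and 61 in mutant pup 4, against 287 in WT pup 2. Fstl1 in perichondrial-like cells stood at 2244 and 2253 CPM in WT and 2579, 2804 and 2463 CPM in mutant pups (0.22 ± 0.11, SE), while in its leading cluster 23 the labels overlapped (0.13 ± 0.12, SE). The differences of Bambi were small. Every mutant pup was above in all cells (24.3 and 24.4 against 27.1, 28.7 and 26.6 CPM, 0.18 ± 0.08, SE) and in tendon- and ligament-like cells (29.0 and 31.7 against 34.2, 34.3 and 31.8 CPM, 0.14 ± 0.11, SE). In articular-like chondrocytes every mutant pup was below (20.7 and 21.7 against 20.3, 15.7 and 19.1 CPM, -0.19 ± 0.14, SE).

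**Figure D4:**
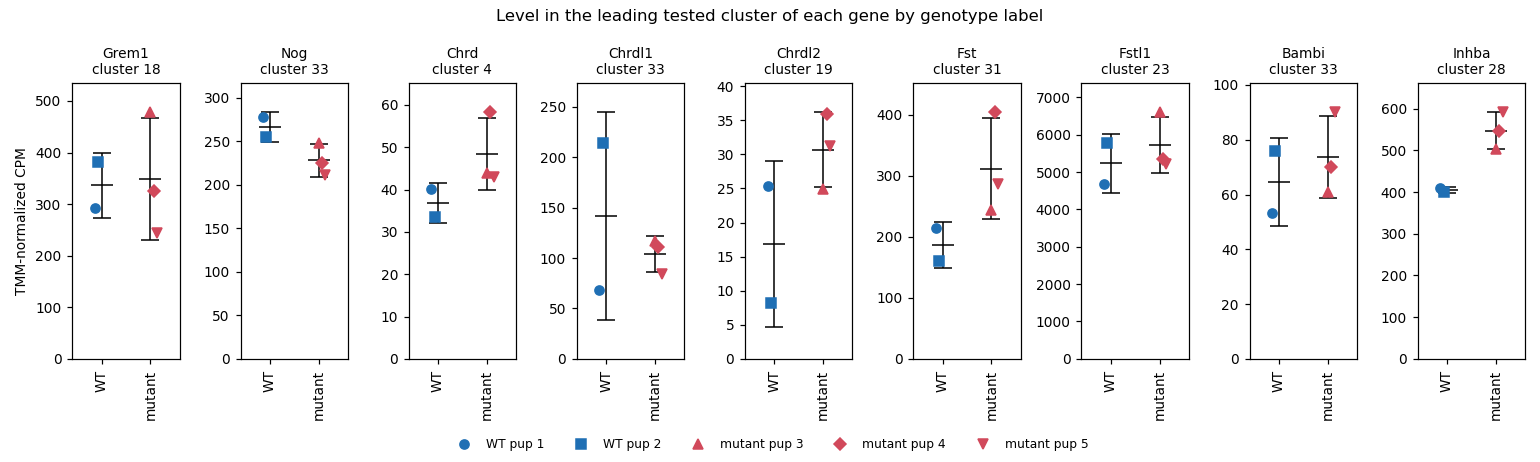
Each panel shows 1 gene in its leading tested cluster, with a point per pup of TMM-normalized CPM on an axis from 0 and black bars for the mean and SD of each label (WT n = 2, mutant n = 3). Mutant pups lie above both WT pups for Chrd, Fst and Inhba (503 to 591 against 400 and 410 CPM), below for Nog, and overlap with them for the other 5. Of all genes tested in these leading clusters, 19.4% to 24.1% did not overlap between labels, in either direction.

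**Figure D5:**
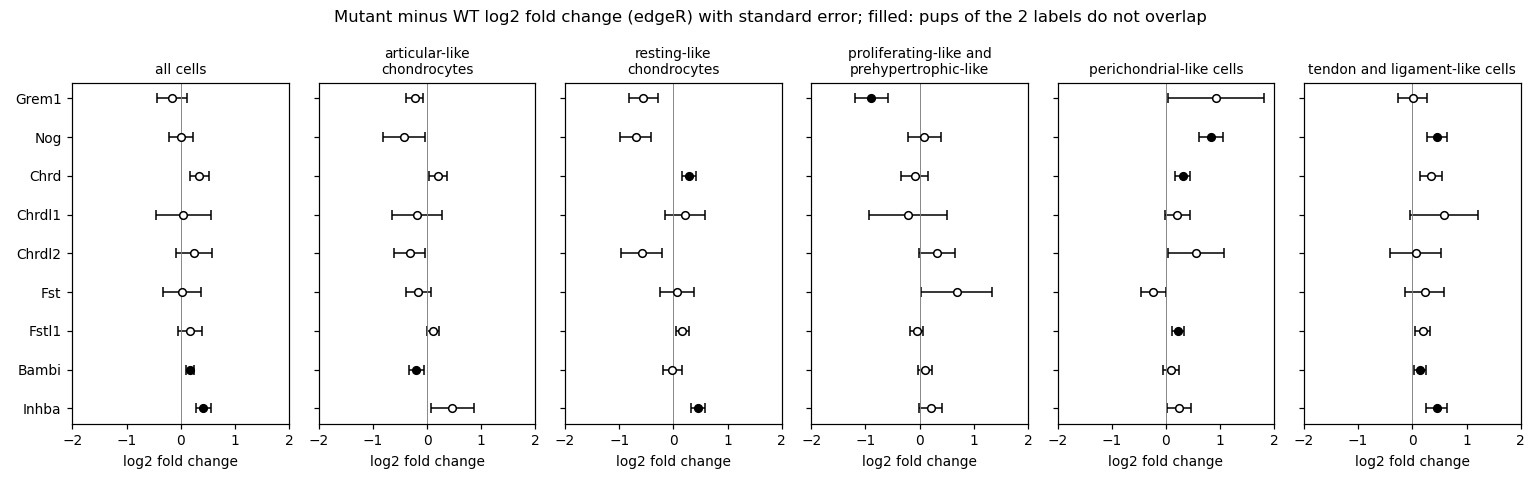
Points are edgeR's log2 fold changes, mutant minus WT, with bars for the standard error, for the 9 genes in 6 sets of cells, and filled points mark genes whose pups do not overlap between labels. The filled points are 12 of 54, 10 to the right of 0 and 2 to the left, and 0 passed an adjusted p of 0.05. Of all genes tested, 18.1% to 27.5% did not overlap in these sets, in either direction.

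In the leading clusters the same comparison on thinned shares of cells could not pass a threshold of 0.05, since 2 against 3 pups allow no exact permutation p below 0.1. The share with a UMI was 6.79 percentage points higher in mutant pups for Fst (exact permutation p = 0.1, two-sided, 3 of 3 mutant pups above both WT pups), 3.68 for Chrdl2 (p = 0.1, exact permutation), and 8.43 for Inhba (exact permutation p = 0.3). For the other 6 genes the differences ran from -4.63 (Chrdl1) to 1.07 points (Chrd), with exact permutation p from 0.3 to 1. Without thinning, where the cells of the WT pups are deeper, the difference had the other sign for Fst (-1.30 points), Inhba (-2.52), Chrd (-1.88) and Bambi (-2.36).

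Over 35 single clusters with at least 50 cells in every pup, 262 member and cluster pairs were tested with edgeR and 0 were called (lowest adjusted p 0.357), where 0.00799% of all gene and cluster pairs were called. An unadjusted p under 0.05 was met by 42 pairs (background 5.43%). Every mutant pup was above in 45 pairs (background 10.5%) and below in 17 (background 11.3%). The clusters share the 5 pups, so these counts are not independent. Chrd was above in 12 of 33 clusters and below in 0 (median log2 fold change 0.23), and Inhba above in 8 of 35 and below in 1 (median 0.31). Chrdl1 was above in 5 of 25 and below in 0 (0.52), and Grem1 above in 2 and below in 5 of 33 (-0.22). The cluster where Inhba was below was macrophage-like cluster 38, with 38.5 and 104 CPM in WT and 6.34, 12.8 and 18.8 CPM in mutant pups (-2.56 ± 0.54, SE; edgeR adjusted p = 0.44).

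Of the 68 other pathway genes, 51 to 66 were tested in each of the 6 sets and edgeR called 0 in every set. In articular-like chondrocytes, 6 of the 8 BMP target genes tested had every mutant pup below both WT pups and 1 had every mutant pup above, with a median log2 fold change of -0.47 and a background of 12.7% below. In the same set the receptors and co-receptors had every mutant pup above for 5 of 12 and below for 0, the Smads above for 3 of 8 and below for 0, and the ligands above for 3 of 11 and below for 0, with a background of 11.2% above, and the other modulators above for 2 of 15 and below for 1. These counts varied between sets: the receptors and co-receptors were above for 3 and below for 2 of 11 in resting-like cells, and above for 1 and below for 3 of 11 in the proliferating-like and prehypertrophic-like set. Among the target genes in articular-like chondrocytes, Id3, an inhibitor of differentiation induced by BMP signals, read 90.2 and 120 CPM in WT and 80.2, 53.2 and 72.9 CPM in mutant pups (-0.61 ± 0.18, SE; edgeR adjusted p = 0.764), and Id1 was at -0.50 on the log2 scale. Of the target genes tested in the other sets, every mutant pup was above for 2 and below for 0 in all cells, above for 1 and below for 2 in resting-like cells (6 of 9 with a fold change above 0, median 0.07, Id4 at -0.41), above for 0 and below for 1 in the proliferating-like and prehypertrophic-like set, above and below for 0 in perichondrial-like cells, and above for 2 and below for 2 in tendon- and ligament-like cells. Acvr1, a BMP type I receptor, read 122 and 140 against 167, 188 and 197 CPM in articular-like chondrocytes (0.49, the largest there after Bmp7 at 0.61) and 64.9 and 67.4 against 85.7, 90.6 and 91.2 CPM in all cells (0.43 ± 0.08, SE; edgeR adjusted p = 0.841).

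Of the ligands, Bmp5 had log2 fold changes of 0.40 in all cells, 0.39 in resting-like cells and 0.43 in the proliferating-like and prehypertrophic-like set, and Bmp6 of 0.41 and 0.55 in the latter 2. Bmp2 and Bmp3 in tendon- and ligament-like cells were at 0.35 and 0.87, and Bmp4 in perichondrial-like cells at -0.53. Of the modulators in perichondrial-like cells, the BMP antagonist Sostdc1 read 19.9 and 22.5 CPM in WT and 28.6, 33.7 and 34.9 CPM in mutant pups (0.59 ± 0.15, SE; edgeR adjusted p = 0.356), the same direction as Nog and Chrd there, and Wfikkn2 was at 0.84 and Htra1 at -0.29. Among pathway genes whose mean reached 20 CPM, the 2 most negative values were those of Smoc1 (-0.32) and Id1 (-0.21) in all cells, Id4 and Smad7 (-0.11) in resting-like cells, Smoc2 (-0.28) and Smoc1 (-0.27) in the proliferating-like and prehypertrophic-like set, and Mstn (-0.47) and Gdf10 (-0.27) in tendon- and ligament-like cells.

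Without mutant pups 3 and 4, the pups with Xist, mutant pup 5 alone stood against the WT pups, its spread assumed to be like theirs. Of the 9 genes, 0 were called in each of the 6 sets, where edgeR called 43 of 14565 genes in resting-like cells, 130 of 11662 in perichondrial-like cells and 0 in the other 4. In cluster 19, 1 of the 8 members tested was called (Nog), with 77 of 13499 genes. In cluster 33 without WT pup 2, 1 of the 7 tested was called (Inhba), with 8 of 10266 genes.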

How the data were processed

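The authors ran a hosted pipeline on BD Rhapsody reads, on the build mm10 per the submitters' processing notes, and deposited, for each pup, a sparse matrix of counts, in which each value is the number of UMIs of a gene seen with a barcode. The aligner and the strand setting are not given in the sources used here, so overlapping genes cannot be told apart. Gene positions came from GENCODE M21 on GRCm38.

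Cells were kept with 200 to 6000 genes and at most 10% mitochondrial UMIs. Pearson residuals within each pup (theta 100) over 3000 variable genes, without the 9 genes, the 68 pathway genes, Trpv4, Xist, Y-linked and mitochondrial genes, gave 50 principal components, and the 20-neighbour Jaccard graph was clustered with the Leiden algorithm (resolution 1.5) in scanpy 1.11.5 and leidenalg 0.10.2. Clusters were named from 21 marker lists, with at least 3 detected markers up, no more of a list's markers down than up, and no other class with more of its markers among the 10 leading genes, and the limits for a name were set after the data had been seen. Marker levels therefore do not test a name. A list that scored up to 0.5 below the best list could also give the name. No cells were removed as doublets: Scrublet's automatic threshold called 0 cells in every pup, and leaving out the 5% of cells with the highest scores in each pup is an alternative chosen after seeing the data. UMI counts were summed per pup and set of cells (at least 50 cells in every pup) and tested with edgeR 4.0.16 (TMM, filterByExpr, robust quasi-likelihood), checked on simulated counts. DESeq2 1.42.0 was an alternative. The edgeR test gives no standard error, so each SE beside its fold changes was derived from the test. It is the absolute log2 fold change divided by the square root of the F statistic. R 4.3.3, Python 3.11.15 and scipy 1.17.1 were used. The p-values measure the spread between littermate pups.

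The 9 genes, the pathway list and the marker lists were chosen with earlier results of these data known. Besides the 9 genes, the text names the 3 genes most like each of them among genes reaching 20 CPM in a cluster, pathway genes past the threshold, the 2 largest positive and 2 largest negative pathway fold changes per set with a mean of at least 20 CPM, and Trpv4 and Xist. Pathway genes highest in a leading cluster, genes leading a cluster, further values of pathway genes and the single macrophage-like cluster were named after their values were seen. No hypertrophic-like or osteoblast-like set was formed, so neither was tested.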

Additional observations from a re-analysis of the deposited data

Results flagged for a closer look

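Compared were 5 sets of cells (the 6 of the report without all cells) and, for each gene, its leading cluster; single clusters that do not lead were left out. In 3 pairs of these, every mutant pup lay above both WT pups in 1 and below both in the other, and the difference between the log2 fold changes was tested by exact permutation of the labels over the 5 pups, where the smallest p possible is 0.1. Nog had a log2 fold change of 0.82 in perichondrial-like cells and -0.22 in prehypertrophic-like cluster 33, which differed by 1.02 when computed pup by pup (exact permutation p = 0.1). Between tendon- and ligament-like cells (0.46) and the same cluster, Nog differed by 0.65 (exact permutation p = 0.2). In perichondrial-like and in tendon- and ligament-like cells Nog was low, within the range over pups of erythroid-like cells. Bambi differed by 0.34 between tendon- and ligament-like cells (0.14) and articular-like chondrocytes (-0.19; exact permutation p = 0.1). The pairs were picked because their pups separate, so these p-values are descriptions.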

How the results depend on the processing

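With edgeR's low-count filter removed, 2 members were called in resting-like chondrocytes (Nog at -0.69, adjusted p = 0.0109, and Inhba at 0.46, adjusted p = 0.0235), where 151 of 25141 genes were called, and 1 in perichondrial-like cells (Nog at 0.84, adjusted p = 0.0334), where 141 of 21845 were. The other calls of members among the 6 sets came from leaving out a pup, with 0 to 1 called in resting-like chondrocytes (Grem1, without WT pup 2, with 26 of 14466 genes), and DESeq2 called 0. Of the 68 pathway genes, DESeq2 called 2 in all cells (Acvr1 and Sostdc1, with 42 of 29758 genes) and 1 in resting-like cells (Bmp3, with 29 of 25141). Without the filter, 3 were called in articular-like (Acvr1, Bmp7 and Id3, with 53 of 23385 genes), 1 in resting-like (Bmp3) and 1 in perichondrial-like cells (Sostdc1), and without the pups with Xist 1 in perichondrial-like cells (Bmp3, with 130 of 11662 genes). The cause of these changes was not tested.

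Levels held except Grem1 in articular-like chondrocytes (160 CPM with another random seed), and Nog and Chrdl1 in prehypertrophic-like chondrocytes (192 and 108 CPM at Leiden resolution 0.8, where the named cells differ). Of 24 log2 fold changes followed over 267 alternative values, 256 kept their sign and 18 fold changes kept it throughout. Where every mutant pup lay on the same side of both WT pups, leaving out a pup could hardly turn the sign. A kept sign is no test there, so these counts do not measure robustness. The fold changes given next, whose sign turned, came from pups that overlapped between labels. Leaving out each pup in turn, Grem1 in resting-like cells ran from -0.97 to 0.037, Chrdl1 in the proliferating-like and prehypertrophic-like set from -0.86 to 1.01, and, in their leading clusters, Grem1 from -0.25 to 0.26, Chrdl1 from -1.03 to 0.63, Fstl1 from -0.0080 to 0.29 and Bambi from -0.077 to 0.44. Without the pups with Xist, Grem1 was at -0.47 and Fstl1 at -0.0064.

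Thinned shares, in percentage points and leaving out each pup in turn, ran from -7.20 to 0.627 for Grem1, -7.57 to 2.55 for Nog, -0.577 to 2.71 for Chrd, -12.9 to 3.61 for Chrdl1 and -8.998 to 10.8 for Bambi. Without thinning, Chrd was at -1.88, Fst at -1.30, Bambi at -2.36 and Inhba at -2.52. Removing doublets as called by Scrublet was not run, since it called none, and perichondrial-like cells formed no set with the other seed. No paired analysis was possible because the labels number the pups 1 to 5 over both groups and share no number between them. Depth limits the sparse genes: Chrdl2 had enough UMIs for a test in 15 of the 35 single clusters.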
